A study of Mus musculus with 6 samples.

Results

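Muscle fibers form when mononucleated myoblasts align, adhere and fuse, and the genes described here encode proteins that work at the contact between myoblasts. They are the 10 genes Mymk, Mymx, Cdh15, Cdh2, Cdh11, Cdon, Boc, Jam2, Jam3 and Ncam1, taken by their symbols from the 22375 rows of the deposited expression table. C2C12, an immortalised line of mouse myoblasts, was used, and all cells were seeded near confluence on poly-lysine-coated elastic plates in serum-containing growth medium. Cells of the 4H group were stretched cyclically for 4 h, with an elongation of 15%, as a model of excessive load, and those of the CON group were left unstretched. Each group had 3 libraries of poly(A) RNA, which the labels call separate biosamples. It is not stated whether they came from separate cultures, so the p values measure the spread between these libraries, which may be technical. C2C12 is a single line, so the values describe that line and not muscle tissue.

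Fusion of vertebrate myoblasts needs the membrane proteins myomaker, encoded by Mymk, and myomixer, encoded by Mymx. Myomaker acts before myomixer, which completes the opening of the fusion pore. Before fusion, cadherins and proteins of the immunoglobulin superfamily hold myoblasts together. M-cadherin (Cdh15), N-cadherin (Cdh2) and cadherin-11 (Cdh11) bind the like molecule on the neighbouring cell, CDON and BOC form complexes with cadherins and promote differentiation, JAM-B (Jam2) and JAM-C (Jam3) bind each other across cells, and NCAM (Ncam1) mediates adhesion between cells that both carry it. MYOD1 and its relatives activate muscle genes by binding the E-box, a short motif with the letters CANNTG.

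Expression was given as FPKM, fragments scaled to transcript length and to the mapped total of the library, so levels of different genes are comparable per length. The fragment numbers behind these values are not given, so the depth is unknown. Low values put the 6 libraries within 1.74% of the same relative depth. Only small differences were searched, so a large difference in depth could not have been found. The sum of FPKM was 395790 to 397260 in the CON libraries and 385146 to 387516 in the 4H libraries. limma was run on log2(FPKM + 0.5) for the 11593 genes that averaged 0.5 FPKM or more, and an adjusted p of at most 0.05 counted as a change. Differential expression was called where the absolute log2 change also reached 1. All log2 fold changes are on the log2(FPKM + 0.5) scale, which understates the change of low genes.

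Of the 10 genes, 9 reached a mean of 0.5 FPKM and were tested. After 4 h of stretch, 5 of these 9 rose, namely Mymk, Cdh15, Cdh2, Cdon and Jam2, and 0 fell. Cdh11, Boc, Jam3 and Ncam1 did not pass the test. Of all genes tested, 22.6% were higher and 24.1% were lower in the 4H group, 46.7% in either direction. The median log2 fold change was 0.29 over the 9 genes and -0.01 over all genes tested. Of the 9, Jam2 alone was differentially expressed, and so were 3.88% of all genes tested, 2.61% higher and 1.28% lower. The 4H and CON libraries did not overlap in the 5 genes that rose, while 56.7% of all genes tested showed no overlap, 27.5% higher and 29.2% lower after stretch. In bulk RNA, a change in the number of cells that express a gene cannot be told apart from a change in RNA per cell.

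**Figure D1:**
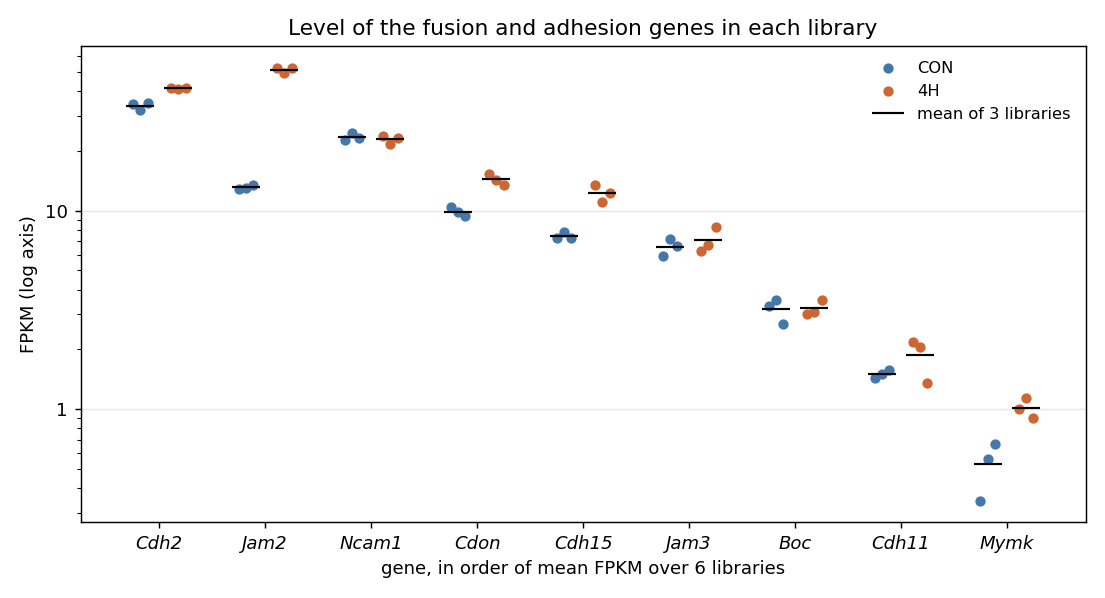
FPKM (log axis) of 9 fusion and adhesion genes in each of 3 CON and 3 4H libraries, with horizontal bars at the group means. Jam2 shows the widest gap, from a mean of 13.1 to 51.4 FPKM, and Mymx is not drawn because it was listed at 0 in all 6 libraries.

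The levels fell into an order whose neighbours did not overlap in either group. In the CON group Cdh2 was highest, at a mean of 33.7 FPKM, followed by Ncam1 at 23.5, Jam2 at 13.1, Cdon at 9.85, Cdh15 at 7.46, Jam3 at 6.57, Boc at 3.18, Cdh11 at 1.502 and Mymk at 0.525 FPKM. In the 4H group Jam2 stood above Cdh2, and the other genes kept their order. Averaged over the 6 libraries, Cdh2 lay above 82.9% and Mymk above 3.09% of the genes tested.

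The fusion proteins were the lowest of the 10. Mymk (ENSMUSG00000009214, chr2:27061636-27072179 in GRCm38, minus strand) was at 0.345, 0.561 and 0.668 FPKM in CON replicates 1 to 3 and at 1.00, 1.14 and 0.896 FPKM in 4H replicates 1 to 3. All 4H libraries lay above all CON libraries, but every value was near or below 1 FPKM. Mymk rose from 0.525 ± 0.16 to 1.01 ± 0.12 FPKM (mean ± SD, n = 3 libraries each), with the log2 value higher by 0.57 (SE 0.16, limma adjusted p = 0.0194, Benjamini-Hochberg). The adjusted p was 0.0649 without 4H replicate 2, 0.0545 without CON replicate 1 and 0.0578 after quantile normalization, and ranged from 0.0131 to 0.0649 over all alternatives. Mymx (ENSMUSG00000079471, chr17:45600971-45602102, minus strand) was listed at 0 in all 6 libraries, as were 5799 rows of the table in total, and could not be tested. The partner of Mymk in fusion was thus not measured above 0 in either group.

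Cadherins join myoblasts through calcium-dependent contacts that are anchored to actin by catenins. Cdh15 (ENSMUSG00000031962, chr8:122847966-122867397, plus strand), the cadherin most specific to skeletal myoblasts and satellite cells, was at 7.25, 7.83 and 7.30 FPKM in the CON libraries against 13.4, 11.04 and 12.3 FPKM in the 4H libraries. The groups were well separated, since the lowest 4H library exceeded the highest CON library by more than the range within either group. Cdh15 rose from 7.46 ± 0.32 to 12.25 ± 1.19 FPKM (SD, n = 3 libraries each), or by 0.68 on the log2 scale (SE 0.08, limma adjusted p = 0.00021). Over the alternatives its log2 fold change ranged from 0.61 to 0.75, and all of them kept the call.

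Cdh2 (ENSMUSG00000024304, chr18:16588877-16809246, minus strand), which is shared by myoblasts, neurons and heart muscle, was at 34.4, 32.1 and 34.7 FPKM in the CON libraries against 41.7, 41.1 and 41.6 FPKM in the 4H libraries. The groups did not overlap, and Cdh2 rose from 33.7 ± 1.44 to 41.4 ± 0.33 FPKM (log2 fold change 0.29, SE 0.04, limma adjusted p = 0.00056). Cdh11 (ENSMUSG00000031673, chr8:102632095-102785642, minus strand), a cadherin of mesenchymal cells, was at 1.43, 1.51 and 1.57 FPKM in the CON libraries against 2.18, 2.05 and 1.35 FPKM in the 4H libraries. 4H replicate 3 lay below all CON libraries and the other 4H libraries above them. The log2 fold change of Cdh11 was 0.22 (95% interval -0.13 to 0.57, adjusted p = 0.276 from limma), and without 4H replicate 3 it was 0.39 with an adjusted p of 0.0300.

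The 3 cadherins together summed to 42.7 ± 1.14 FPKM without stretch and to 55.5 ± 1.57 FPKM with it. Cdh2 held 79.0 ± 1.33% of that sum in the CON group and 74.6 ± 1.63% in the 4H group, and Cdh15 held 17.5 ± 1.22% and 22.03 ± 1.54% (SD, n = 3 libraries each). The share of Cdh15 was 16.8, 18.9 and 16.8% in the CON libraries and 23.4, 20.4 and 22.3% in the 4H libraries, so the groups did not overlap. A scaling factor of the whole library cancels in such a share. The two-sided exact permutation test of the share gave p = 0.1 for Cdh15 and for Cdh2, the smallest that 3 libraries against 3 allow, and p = 1 for Cdh11. The shares of the 3 cadherins add up to the whole, so their p values are not separate results. N-cadherin mRNA remained the main cadherin mRNA of the 3 in all 6 libraries.

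Among the 10 genes, RefSeq promoter sequence (GRCm38.p6) was matched for Cdh15 and Cdon, and both were searched for the E-box because both genes rose. The 250 bases before the RefSeq start of Cdh15 held 3 matches to CANNTG, which reads the same on both strands, at 236, 135 and 32 bases before the start. Each follows with its flanks, the E-box in capitals, from chr8:122848129-122848152, chr8:122848230-122848253 and chr8:122848333-122848356 of the plus strand.
Cdh15 E-box at 236: cactgatcaCATATGctgtcactc
Cdh15 E-box at 135: gcccacctaCATGTGctgtcactc
Cdh15 E-box at 32: cccaccacaCACGTGcagtccctt
GENCODE M21 starts Cdh15 farther upstream, at 122847966, so all 3 windows lie downstream of that start, inside the annotated gene. The windows at 236 and 135 share the 9 bases after the E-box. CANNTG occurred in 66.2% of the 32851 RefSeq promoters at this length, with a median of 1 match. The RefSeq start of Cdon, at 35452076, lies far inside the gene that GENCODE starts at 35421128, so the 250 bases before it do not cover the GENCODE promoter. They held 0 matches to CANNTG. Neither stretch held CAGCTG or CACCTG, which are E-boxes that MYOD1 is known to prefer and which 13.0% and 17.2% of promoters held on either strand. Neither stretch held TGANTCA, the AP-1 motif of 6.75% of promoters, nor GGAATG, the TEAD motif of 12.6%.

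CDON and BOC are related receptors of the immunoglobulin superfamily that signal from cadherin contacts and also bind hedgehog proteins. Cdon (ENSMUSG00000038119, chr9:35421128-35507652, plus strand) was at 10.4, 9.85 and 9.34 FPKM in the CON libraries against 15.4, 14.3 and 13.5 FPKM in the 4H libraries. The groups did not overlap, and Cdon rose from 9.85 ± 0.51 to 14.4 ± 0.95 FPKM (log2 fold change 0.52, SE 0.07, limma adjusted p = 0.00034). Boc (ENSMUSG00000022687, chr16:44485049-44558897, minus strand) was at 3.29, 3.56 and 2.69 FPKM in the CON libraries against 3.01, 3.09 and 3.54 FPKM in the 4H libraries. The groups overlapped fully, and the log2 fold change of Boc was 0.02 (95% interval -0.24 to 0.28, adjusted p = 0.912 from limma). The share of Cdon in the summed FPKM of both genes was 75.9, 73.5 and 77.6% in the CON libraries and 83.6, 82.3 and 79.2% in the 4H libraries (two-sided exact permutation test, p = 0.1, the smallest possible). Every 4H share lay above every CON share, with a small gap between 77.6% and 79.2%.

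Junctional adhesion molecules are immunoglobulin-like proteins of cell contacts, and JAM-B and JAM-C are known to take part in fusion of myoblasts in fish. Jam2 (ENSMUSG00000053062, chr16:84774123-84825928, plus strand) was at 12.9, 13.05 and 13.5 FPKM in the CON libraries against 52.6, 49.2 and 52.3 FPKM in the 4H libraries. Spread within each group was small beside the gap between them. Jam2 rose 3.91-fold, from 13.1 ± 0.29 to 51.4 ± 1.89 FPKM (SD, n = 3 libraries each), or 1.93 higher on the log2 scale (SE 0.04, 95% interval 1.83 to 2.03, limma adjusted p = 6.02e-08). It had the 45th largest rise of the 11593 genes tested, and 0.604% of them changed as much in either direction. Its log2 fold change stayed between 1.89 and 1.99 over all alternatives, those that left out 1 library included.

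**Figure D2:**
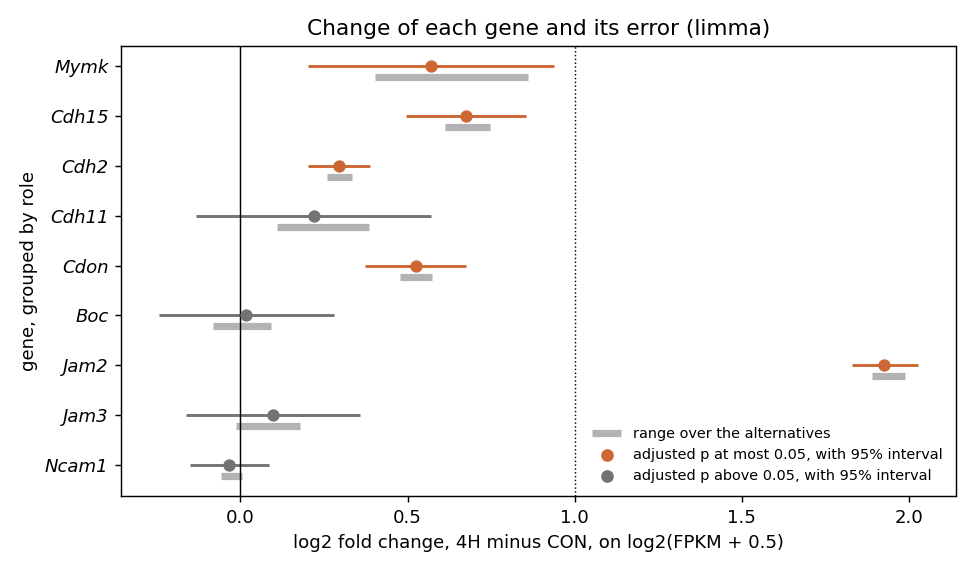
Log2 fold change of each tested gene, 4H minus CON, with its 95% interval from limma and, as a gray bar below it, the range over the alternative settings, with a dotted line at 1. Jam2 at 1.93 is the only gene past 1, and the intervals of Cdh11, Boc, Jam3 and Ncam1 include 0.

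Jam3 (ENSMUSG00000031990, chr9:27097384-27155421, minus strand), whose product is the main binding partner of JAM-B, was at 5.88, 7.16 and 6.66 FPKM in the CON libraries against 6.25, 6.72 and 8.30 FPKM in the 4H libraries. Only 4H replicate 3 lay above the CON range. The log2 fold change of Jam3 was 0.10 (95% interval -0.16 to 0.36, adjusted p = 0.508 from limma), and it was -0.01 without that library. An exon of Jam3 overlaps 1 annotated gene on the other strand, Gm48796, and although the libraries were made strand-specific, it is not stated whether counting took strand into account.

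F11r, which encodes the related JAM-A and is not one of the 10 genes, fell from 10.8 ± 0.91 to 7.42 ± 0.57 FPKM (-0.52 on the log2 scale, limma adjusted p = 0.00112). The 3 JAM genes summed to 30.5 ± 1.62 FPKM without stretch and to 65.9 ± 2.20 FPKM with it. Jam2 made up 44.9, 42.2 and 42.2% of that sum in the CON libraries and 78.7, 77.7 and 77.5% in the 4H libraries. The share of Jam3 went from 21.5 ± 1.44% to 10.8 ± 1.49% and that of F11r from 35.4 ± 1.28% to 11.3 ± 0.97% (two-sided exact permutation p of 0.1 for all 3 shares, the smallest possible). The 3 shares add up to the whole, so their p values are not separate results, and the level of Jam3 itself did not pass the test. Jam2 exceeded F11r by a small margin in the CON libraries, and it made up most of the total after stretch. JAM-B is also a junction protein of endothelial cells, and of 6 endothelial markers 0 reached a mean of 0.5 FPKM. The summed level of these markers was 0.147 to 0.287 FPKM in the CON libraries and 0.467 to 0.619 FPKM in the 4H libraries. Vwf went from a mean of 0.0839 to 0.257 FPKM, Kdr from 0.0658 to 0.157 and Tek from 0.0301 to 0.0978, each without overlap of the groups. Pecam1 (0.00566 and 0.0462 FPKM) and Cdh5 (0.00980 and 0.00987 FPKM) overlapped, and Emcn was at 0 in all 6. A part of such cells in the rise of Jam2 was not tested.

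**Figure D3:**
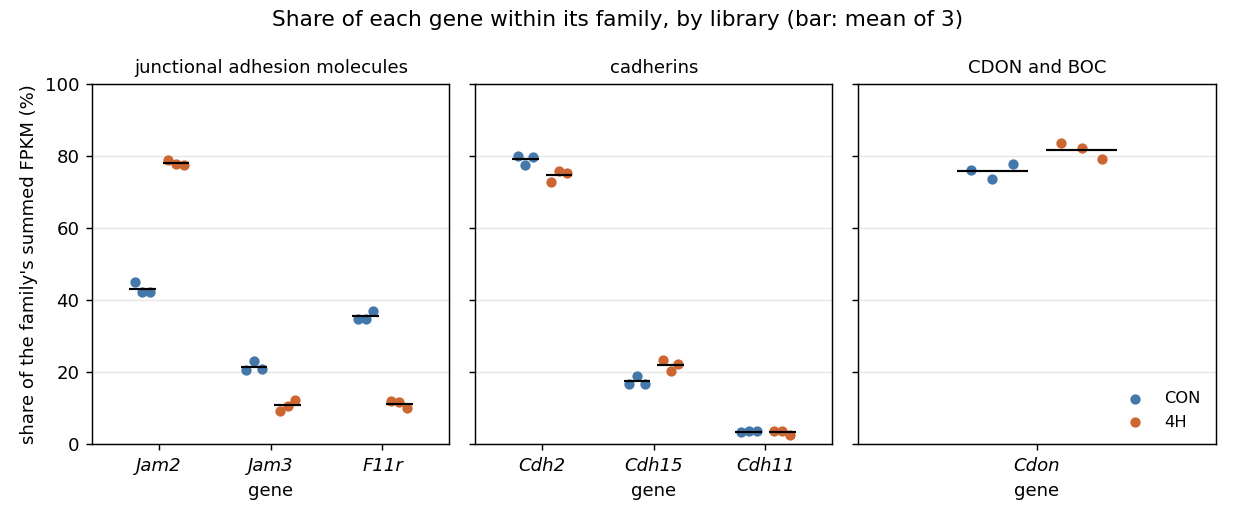
Share of each gene in the summed FPKM of its family (%), by library, for the JAM genes, the cadherins and the pair of Cdon and Boc, with bars at the mean of 3 libraries. Jam2 moves from 43.1% to 78.0% of the JAM sum, while the cadherin shares shift by under 5 points.

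Ncam1 (ENSMUSG00000039542, chr9:49502136-49798925, minus strand), a cell adhesion molecule of neurons and of myoblasts and myotubes, was at 22.8, 24.7 and 23.2 FPKM in the CON libraries against 23.9, 21.8 and 23.4 FPKM in the 4H libraries. The groups overlapped, and the interval of the difference was narrow, with a log2 fold change of -0.03 (95% interval -0.15 to 0.09, adjusted p = 0.635 from limma). An Ncam1 exon overlaps 1 gene on the other strand, Gm11149. The two-sided exact permutation test gave p = 0.1 for each of the 5 genes that rose, 0.4 for Cdh11, 0.6 for Jam3, 0.6 for Ncam1 and 1 for Boc.

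Of the genes tested, those whose log2 values followed Jam2 most closely over the 6 libraries were Sgk1, a kinase induced by serum and stress, Mtmr10, a myotubularin-related gene, and Errfi1, a feedback inhibitor of EGF receptors. Their Pearson correlations with Jam2 were 0.9997, 0.9997 and 0.9996, and 450 tested genes reached 0.99, since the difference between the groups dominates such a correlation. Mean levels without and with stretch were 46.99 and 125.9 FPKM for Sgk1, 16.0 and 21.8 FPKM for Mtmr10, and 25.1 and 85.6 FPKM for Errfi1.

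Of 11 myogenic regulators listed, 7 were tested, 3 rose and 1 fell, beside 22.6% higher and 24.1% lower over all genes tested. Myod1, the master regulator of the lineage, was at 5.37, 4.48 and 5.55 FPKM in the CON libraries against 18.5, 17.4 and 18.8 FPKM in the 4H libraries (1.74 higher on the log2 scale, limma adjusted p = 1.56e-06). Myf5, the regulator of undifferentiated myoblasts, fell from 15.8 ± 0.85 to 9.82 ± 1.13 FPKM (-0.67 on the log2 scale, adjusted p = 0.00035). Myog, the regulator of terminal differentiation that is known to activate Mymk and Mymx, was below the filter, at 0.281, 0.136 and 0.235 FPKM in the CON libraries against 0.0794, 0 and 0 FPKM in the 4H libraries. Mef2d was the highest of the list, at 28.0 ± 0.54 and 29.5 ± 0.73 FPKM (adjusted p = 0.14). Mymk and Myod1 were thus higher and Myog was near 0 in the same stretched libraries.

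Partners of the 10 genes were taken from 7 lists, the myogenic regulators included, with 157 genes, of which 111 were tested. Of these, 59 rose and 21 fell, 72.1% in all against the 46.7% of all genes tested, and their median log2 fold change was 0.18. Catenins and other cadherin partners had a median of 0.31, with 10 of 16 higher and 1 lower (22.6% and 24.1% of all genes tested). Ctnna1, the α-catenin that links cadherins to actin, was highest, at 135.2 ± 1.603 and 163.7 ± 1.03 FPKM. The largest rise was that of Jup, which encodes plakoglobin, from 3.85 ± 0.23 to 11.2 ± 1.06 FPKM (log2 fold change 1.42), and Vcl, the gene of the actin-binding adhesion protein vinculin, rose from 66.3 ± 2.44 to 161.9 ± 2.51 FPKM (1.28). Afdn, which joins nectins to actin, fell from 27.5 ± 0.67 to 22.8 ± 1.02 FPKM. Of the other cadherins, 3 of 14 were tested, and Cdh18 (log2 fold change 0.89) and Cdh13 (0.49) rose while Cdh24 fell (-0.57).

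**Figure D4:**
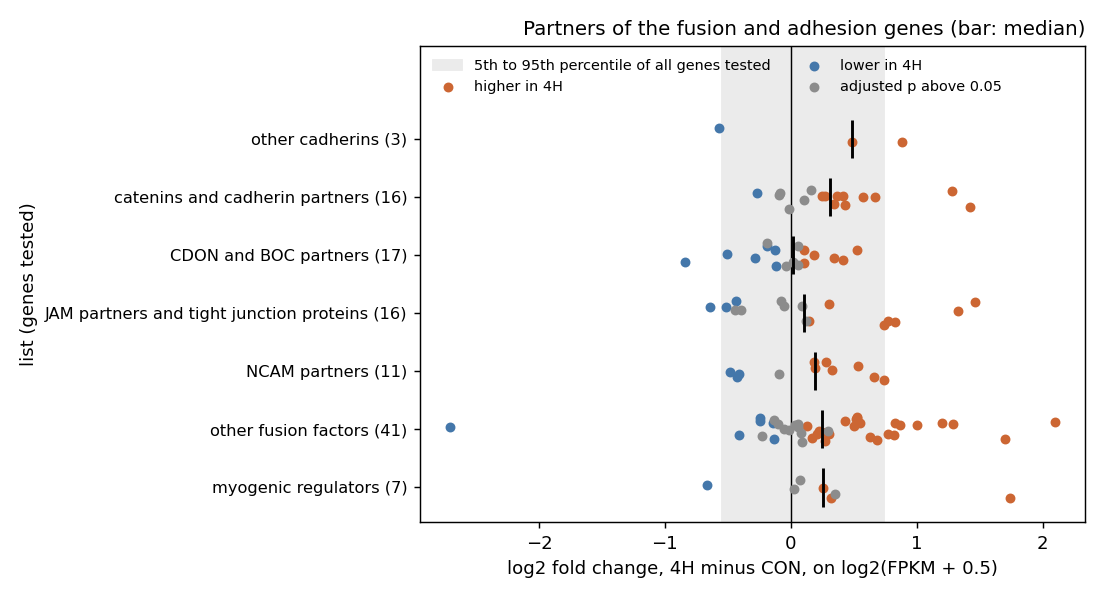
Log2 fold change, 4H minus CON, of the tested genes in 7 lists of partners, 1 point per gene and a bar at each list's median, with the 5th to 95th percentile of all genes tested (-0.55 to 0.74) in gray. The catenin list is centred at 0.31 and the list of CDON and BOC partners at 0.02.

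Of the partners of CDON and BOC, 6 of 17 were higher and 6 lower, beside 22.6% and 24.1% of all genes tested, with a median of 0.02. Ntn4, a netrin, rose (log2 fold change 0.53). Gas1, a hedgehog co-receptor that works with CDON and BOC, fell from 15.4 ± 1.08 to 8.33 ± 0.42 FPKM (-0.84), Smo, the signal transducer of hedgehog, fell from 33.7 ± 1.14 to 23.6 ± 1.45 FPKM (-0.51), and Neo1, the netrin receptor neogenin, from 63.2 ± 0.70 to 55.3 ± 0.18 FPKM (-0.19). Of the other hedgehog genes of the list, Hhip, which binds hedgehog proteins, rose from 2.95 ± 0.16 to 4.09 ± 0.26 FPKM (limma adjusted p = 0.00458), and Ptch1, Gli1, Gli3 and Sufu did not pass the test. Cdc42, the small GTPase through which CDON signals, was at 207.0 ± 1.10 and 222.9 ± 6.70 FPKM (adjusted p = 0.0175), and its adjusted p was 0.05001 without 4H replicate 1, 0.0510 without CON replicate 1 and 0.0814 without the trend in limma. Of the partners of JAMs and tight junction proteins, 7 of 16 rose and 3 fell (median 0.11), beside the same 22.6% and 24.1%. Igsf5, the gene of JAM4, was at 0.354 ± 0.07 and 1.89 ± 0.54 FPKM. It passed the filter only through the 4H libraries, which fixed its direction though not its call. Igsf5 is nevertheless counted among the 7 that rose and in the total of the lists. Of the 75-base stretches of Igsf5, 27.6% recur in other gene entries, and the 1 entry that overlaps it on the same strand is also named Igsf5. Igsf11, another adhesion protein of the immunoglobulin superfamily, rose from 5.68 ± 0.37 to 15.0 ± 1.27 FPKM (1.33), Itgb1 was the highest (209.3 ± 4.94 and 258.6 ± 4.20 FPKM), and Cxadr, a receptor of the same kind, fell from 4.45 ± 0.27 to 2.67 ± 0.07 FPKM.

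Among partners of NCAM, 7 of 11 rose and 3 fell (median 0.19), beside 22.6% higher and 24.1% lower of all genes tested. Gap43, a growth-associated protein of neurites, rose from 4.51 ± 0.87 to 7.79 ± 0.91 FPKM, Fyn, a kinase downstream of NCAM, fell from 31.2 ± 0.97 to 22.2 ± 1.41 FPKM, and Prnp, the highest of the list, fell from 85.1 ± 3.17 to 63.3 ± 2.79 FPKM. The other fusion factors numbered 52, and of 41 tested 24 rose and 6 fell (median 0.25), beside the same 22.6% and 24.1%. Cd9, a tetraspanin that acts in myoblast fusion, was highest and rose from 249.3 ± 5.85 to 440.7 ± 10.4 FPKM (log2 fold change 0.82). Fst, the myostatin antagonist follistatin, rose from 0.906 ± 0.32 to 5.43 ± 0.30 FPKM (2.10). Elmo1, which pairs with DOCK1 to activate RAC1, fell from 8.12 ± 0.55 to 0.824 ± 0.07 FPKM (-2.70, adjusted p = 2.98e-07 from limma). Dock1 and Rac1 themselves were at 8.79 ± 0.18 and 113.8 ± 2.75 FPKM without stretch and at 9.39 ± 0.50 and 116.3 ± 1.53 FPKM with it, and neither passed the test. Exons of Fst, Elmo1, Gas1, Cd9, Afdn, Ctnna1, Cxadr, Vcl, Mef2d and Rac1 each overlap at least 1 gene on the other strand, and those of Prnp and Igsf5 each overlap 1 gene entry on the same strand.

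The label of a myoblast was checked against marker genes. All 8 myoblast markers, with Cdh15 among them, were tested, and they summed to 195.1 to 201.4 FPKM in the CON libraries and 285.6 to 300.8 FPKM in the 4H libraries, with 7 higher and 1 lower (22.6% and 24.1% of all genes tested). Of 10 markers of differentiated muscle, Mymk among them, 3 were tested, Actc1 and Myh8 were at 0, and the sum was 2.77 to 3.62 and 3.68 to 4.45 FPKM. In each list for other cells at least 1 marker was at 0 in all 6 libraries (Epcam of epithelium, Emcn of endothelium, Ptprc and Adgre1 of leukocytes, Rbfox3 and Sox10 of neural cells, Tcf21 of fibroblasts), while other markers of the same lists were measured. The summed level went from 6.82 to 8.55 FPKM in the CON libraries to 16.6 to 18.6 FPKM in the 4H libraries for 5 leukocyte markers, mostly Cd68, with Csf1r at a mean of 0.00906 and 1.08 FPKM. For 6 neural markers, mostly Tubb3, the sums were 15.5 to 18.6 and 34.1 to 39.4 FPKM, for 7 fibroblast markers 130.5 to 136.0 and 104.1 to 107.7 FPKM, and for 7 epithelial markers 2.88 to 4.10 and 5.54 to 6.24 FPKM. The fibroblast sum was mostly Col1a2, which fell from 123.1 ± 2.52 to 92.6 ± 1.05 FPKM, while Pdgfra rose from 3.15 ± 0.29 to 5.08 ± 0.32 FPKM (limma adjusted p = 0.00075). Of the epithelial markers, Krt14 rose from 3.32 ± 0.65 to 5.08 ± 0.64 FPKM (limma adjusted p = 0.0116), and Krt5 and Krt8, below the filter, were at means of 0 and 0.0146 FPKM in the CON libraries and 0.225 and 0.304 FPKM in the 4H libraries. Their part in the changes of the fusion and adhesion genes was not tested.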

How the data were processed

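The authors deposited 1 table of FPKM values with a column for each of the 6 libraries, and the submitters' processing notes name the genome build mm10. Which aligner, counting tool and annotation they used is not given in the sources used here. The column sums and low values were checked, no columns were identical, and each column was assigned to a sample by its title. Of 22128 rows with an Ensembl identifier, 22017 are in GENCODE M21 (GRCm38, the assembly of mm10), which gave coordinates, exon overlaps and recurring 75-base stretches of transcripts.

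FPKM is normalized, so the count model of the study was not used. limma 3.58.1 in R 4.3.3 (lmFit, eBayes with a trend) was fitted to log2(FPKM + 0.5) for all genes that averaged 0.5 FPKM or more, two-sided, with Benjamini-Hochberg adjustment over all 11593. Exact permutation tests used SciPy 1.17.1, and tables used Python 3.11.15 and pandas 2.3.3. On simulated data for 4H against CON (11593 genes, 200 changed), 73% of changes of 0.5 and 92% of changes of 1 on the log2 scale were recovered, and 3.51% of calls were false. The real data gave 5409 calls, so these rates need not hold for them. The simulated noise was independent between libraries and could not show an effect shared by a whole group.

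The 10 genes, the partner lists and the markers were chosen with earlier results of these data known. From each list the text names the largest rise, the largest fall and the highest gene, of the myogenic regulators also Myod1, Myf5 and Myog, and for Jam2, the gene that changed most, the 3 genes most correlated with it. Vcl, Smo, Neo1, Hhip, Ptch1, Gli1, Gli3, Sufu, F11r, Igsf11, Dock1 and Rac1, and the shares within families and the promoter motifs, were chosen after the values were seen. Replicates 1 to 3 of the 4H group are those titled 4H1, 4H3 and 4H4, as their descriptions number them. FPKM gives no depth, so precision rests on the spread of 3 libraries. The alternatives were other pseudocounts and filters, a replicate block, no trend, array weights, TPM, median-of-ratios scaling, quantile normalization and each library left out.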

Additional observations from a re-analysis of the deposited data

How the results depend on the processing

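Over 17 alternatives, 7 of the 9 tested genes kept their side of the threshold wherever they were tested, the exceptions being Mymk and Cdh11 as given above. The number of the 9 that changed was 4 to 6 with 1 library left out, 4 after quantile normalization, and 4 of 8 and 4 of 6 with filters at a mean of 1 FPKM, which drops Mymk, and 5 FPKM, which drops Mymk, Boc and Cdh11. Boc, Jam3 and Ncam1, which did not pass the test, changed sign under 3, 1 and 3 alternatives without passing it. Over all genes, 450 were differentially expressed, 245 with a filter at 5 FPKM, which tests fewer genes, and 703 after rescaling to TPM, where 12457 genes pass the filter. Of all genes that changed, 2617 were higher and 2792 lower, against 3140 and 2334 after rescaling to TPM and 2967 and 2598 with no filter. Higher genes were also the more frequent, by a small margin, without CON replicate 2 (2406 and 2398) or CON replicate 3 (2342 and 2296), and lower genes under the other alternatives. Rescaling raised the values while the pseudocount and the filter stayed at 0.5, so both were smaller beside the values. Their part in the rise to 703 was not tested, and a pseudocount of 0.1 on the deposited values gave 591. With the replicate number as a block, 4964 genes in place of 5409 and 5 of the 9 genes changed. These numbers showed no pairing, since the deviations of libraries with the same number correlated at 0.025, -0.093 and -0.126 across genes. By title, 4H replicate 2 is 4H3 and CON replicate 3 is C3, and their deviations correlated at 0.176, the highest of all such pairs. A block by title number was not fitted. Of 28 tested genes named from the partner lists (Hhip, Ptch1, Gli1, Gli3 and Sufu not included), 26 kept their call under every alternative in which they were tested (the 5 FPKM filter drops Cdh18, Cdh24, Cxadr, Elmo1, Fst, Igsf5 and Ntn4), Cdc42 lost it under 3, and Mef2d gained it after rescaling to TPM (adjusted p = 0.0428). Igsf5, whose direction was fixed by the filter, is among these 26.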
